A study of Mus musculus with 28 samples.

Results

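The genes described here encode the machinery that breaks proteins down in the cell: subunits of the proteasome (symbols starting with Psm), ubiquitin-conjugating enzymes (Ube2), ubiquitin-specific proteases (Usp followed by a digit), subunits of the proton pump that acidifies the lysosome (Atp6v), the cathepsins (Cts and 1 letter, without Ctss) and the lysosomal membrane protein Lamp1. They were chosen by symbol alone, from the probe sets that the platform annotation pairs with a single gene. The rule found 165 probe sets for 120 genes, of 10833 probe sets with 1 gene symbol and 12422 in all. To be tested, a probe set had to exceed the array-wide median on 3 or more of the 28 arrays, and 133 of the 165 probe sets (103 genes) did so, beside 7350 of all probe sets (5599 genes). Psmc3ip and Psme3ip1 meet the rule by spelling and are named after the subunits they bind; neither is a proteasome subunit.

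The study measured RNA of the whole brain on Affymetrix U74Av2 arrays in male and female C57BL/6J mice aged 6 to 9 weeks, 1 array per mouse, and compared mice left untreated with mice taken 1 hour after a seizure brought on by nicotine. Wild-type mice (6 untreated, 3 seized) were set beside mice heterozygous for L250T in the alpha7 subunit of the nicotinic acetylcholine receptor, written alpha7 +/T (5 untreated, 5 seized), and mice null for its beta4 subunit (5 untreated, 4 seized). The seized groups received nicotine and the untreated groups did not, and there was no group with an injection but no seizure. Nicotine, injection and seizure therefore cannot be told apart. Both are germline mutations, present in all tissues, and the labels give no nicotine dose. Mice within a group are numbered here in the order of their accessions, which pairs nothing. Each value pools all brain regions and cell types, so fewer cells of a type and less RNA per cell cannot be told apart.

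A protein marked for destruction is tagged with a chain of ubiquitin. An activating enzyme loads ubiquitin, a Ube2 enzyme carries it, and a ligase passes it to the target, while Usp proteases remove it again. The tagged protein is taken up by the 19S cap of the 26S proteasome, whose Psmc ATPases unfold it and whose Psmd subunits bind and remove ubiquitin, and is cut inside the 20S barrel, in which outer rings of alpha subunits (Psma) gate the entrance and inner rings of beta subunits (Psmb) hold the active sites. Proteins and organelles taken up by endocytosis or autophagy are instead digested in the lysosome, where the V-ATPase pumps in protons through its membrane sector V0, driven by its ATP-splitting sector V1, and the cathepsins cut at acid pH. In neurons, ubiquitin tagging and degradation near synapses are known to take part in the remodelling that follows activity.

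Promoters are shown for 3 members whose probe sets passed a test below, because known regulators of these pathways bind short motifs near the start site: CACGTG is the core of the element through which TFEB acts on lysosomal genes, and CCAAT is the box bound by NF-Y. The sequences are the 250 bases before the start annotated by RefSeq (GRCm38.p6), in the direction of the gene, with the motif in capitals. Lamp1 lies on the plus strand at chr8:13158911-13159160 and is shown because it fell after seizure in alpha7 +/T mice. Ctsf (cathepsin F, plus strand, chr19:4854915-4855164) is shown because it was higher in untreated alpha7 +/T mice, and Psma2 (plus strand, chr13:14612992-14613241) because it is the alpha subunit with the smallest p.
Lamp1: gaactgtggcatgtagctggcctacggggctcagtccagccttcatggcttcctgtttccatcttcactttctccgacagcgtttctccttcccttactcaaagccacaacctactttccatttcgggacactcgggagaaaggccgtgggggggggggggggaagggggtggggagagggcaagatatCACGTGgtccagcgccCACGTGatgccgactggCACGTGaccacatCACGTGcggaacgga
Ctsf: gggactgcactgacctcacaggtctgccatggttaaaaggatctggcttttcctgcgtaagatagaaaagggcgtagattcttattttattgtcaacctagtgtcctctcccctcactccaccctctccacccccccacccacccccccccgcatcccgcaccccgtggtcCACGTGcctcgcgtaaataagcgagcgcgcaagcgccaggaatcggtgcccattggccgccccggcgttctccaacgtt
Psma2: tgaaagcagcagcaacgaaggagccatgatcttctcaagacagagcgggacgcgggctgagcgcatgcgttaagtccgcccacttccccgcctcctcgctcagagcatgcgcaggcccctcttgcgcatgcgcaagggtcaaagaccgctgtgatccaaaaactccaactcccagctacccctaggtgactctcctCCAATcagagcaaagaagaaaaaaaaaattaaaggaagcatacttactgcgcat
The Lamp1 window holds CACGTG 4 times, with first bases 61, 45, 28 and 15 bases before the start. The Ctsf window holds it once, 79 bases before, and the Psma2 window holds CCAAT once, 54 bases before. Both strands were searched, and CACGTG reads the same on both. A promoter entry was at hand for 90 of the 120 genes. Some genes had several annotated starts, and a gene was counted if the window before any of them held the motif. CACGTG occurred in 14 of these 90 genes (15.6%) and in 4 of 8 cathepsin genes, beside 6.86% of all 27025 genes with an entry. CCAAT occurred in 30 of 90 (33.3%), beside 37.5% of all, and in 5 of the 7 alpha subunits. TGACNNNGC, the antioxidant response core through which Nrf2-related factors act on proteasome genes, occurred in 14 of 90 (15.6%), beside 11.5% of all, and in 0 of the 7 alpha subunits. A match is a run of letters and not a shown binding site.

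The arrays fell into 2 sets by the Gapdh control ratio. The labels do not say what sets them apart, and all low-ratio arrays are of mutant mice. The log2 ratio of the 3 prime to the 5 prime Gapdh control, was -0.48 to 0.096 in 9 arrays (low-ratio) and 1.13 to 2.57 in the other 19 (high-ratio). The low-ratio arrays came from alpha7 +/T mice (untreated mice 3 and 4, seized mice 1, 2 and 3) and beta4 null mice (untreated 1 and 2, seized 1 and 2), and none from wild-type mice. With group means held, 85 of the 133 member probe sets (63.9%) differed between low-ratio and high-ratio arrays at adjusted p under 0.05, beside 52.1% of all 7350. All 7 alpha subunits were lower in the low-ratio arrays (median log2 difference -0.52, from -0.88 to -0.35), and the median was 0.58 for the 8 V0 probe sets, 0.51 for the 7 Psmc, 0.40 for the 30 Usp and 0.36 for the 12 cathepsin probe sets. Age was uneven too: 3 of 6 untreated wild-type, 4 of 5 untreated alpha7 +/T and 1 of 5 untreated beta4 null mice were 6 weeks old, and no seized mouse was. For untreated alpha7 +/T against wild-type mice, each subclass below is given with the members that no longer passed with array class held.

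In untreated mice the alpha7 +/T genotype was the comparison in which most members passed. Signals are in arbitrary MAS5 units, differences are in log2 units, and a probe set passed at an adjusted p under 0.05 in limma over all 7350. Of the 133 member probe sets 38 passed (28.6%), 15 higher and 23 lower in alpha7 +/T mice, beside 16% of all probe sets kept, of which 7.73% were higher and 8.29% lower. The members' share was 17.3% for those lower and 11.3% for those higher. The split moved with scaling: median centring, which shifts the median of all probe sets from 0.063 to -0.176, gave 8 members higher and 37 lower, beside 191 higher and 1248 lower of all. The alpha subunits of the 20S barrel were below wild-type in 7 of 7 probe sets, and 5 passed. V0 subunits of the proton pump lay above wild-type in 7 of 8 probe sets, and 3 passed as higher and 1 as lower. In the other subclasses members differed in both directions. The median difference over all 133 members was 0.03, beside 0.063 over all probe sets kept, and 62 members (46.6%) had an unadjusted p under 0.05 beside 35.1% of all. The alpha7 +/T and wild-type signals did not overlap for 12 members (9.02%) beside 4.75% of all.

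**Figure D1:**
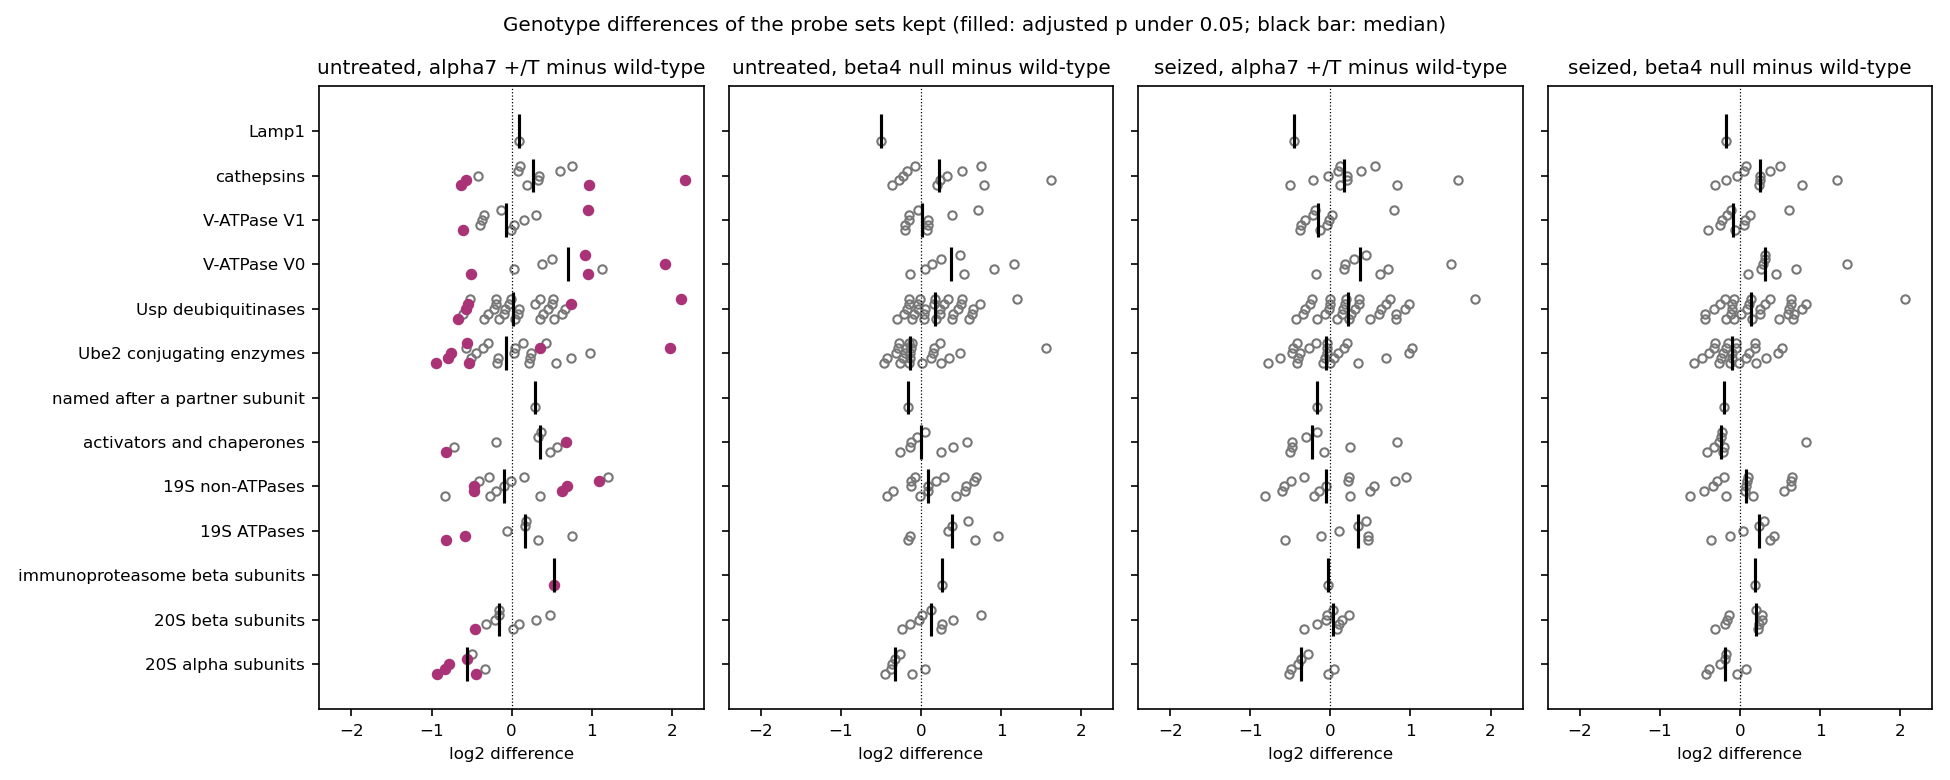
Differences between each mutant and wild-type mice, in untreated mice (left pair of panels) and in seized mice (right pair), for the 133 member probe sets kept; the horizontal axis is the log2 difference in signal and each row is a subclass. Filled points have an adjusted p under 0.05 and black bars are subclass medians; 38 points are filled in the first panel and none in the others, and the 7 alpha subunits lie below 0 in the first.

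Psma2, one of the alpha subunits that gate the barrel, had signals of 915 to 1384 (median 1282) in the 6 untreated wild-type mice and of 761, 934, 425, 552 and 1049 in alpha7 +/T mice 1 to 5. It was 1.72-fold lower (log2 difference -0.78, SE 0.17, adjusted p = 0.0101), and the groups overlapped through mice 2 and 5. Mice 3 and 4, both on low-ratio arrays, were lowest. Psma6, another subunit of the same ring, ranged over 1386 to 1672 (median 1522) in wild-type mice and measured 934, 1110, 495, 487 and 1366 in alpha7 +/T mice, every one below every wild-type mouse. It was 1.90-fold lower (log2 difference -0.93, SE 0.23, adjusted p = 0.0169).

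The other alpha subunits repeated that order of mice. Psma3 ranged over 1752 to 2606 (median 2467) in wild-type mice and measured 1423, 1840, 900.1, 913 and 1831 in alpha7 +/T mice (log2 difference -0.83, SE 0.24, adjusted p = 0.0278); its probe set carries a suffix for probes shared with similar sequences. Psma5 ranged over 443 to 668 (median 598) in wild-type mice and measured 444, 457, 246, 369 and 508 in alpha7 +/T mice (log2 difference -0.55, SE 0.17, adjusted p = 0.032). Mice 3 and 4 were again lowest for both genes. Psma4 measured 444, 370.2, 213, 252 and 459 beside 401 to 526 (median 434) (log2 difference -0.45, SE 0.15, adjusted p = 0.0475), with mice 1 and 5 inside the wild-type range. Psma1 and Psma7 did not pass, at -0.50 (adjusted p = 0.0905) and -0.33 (adjusted p = 0.214), although the 5 Psma7 signals were all below the 6 of wild-type mice.

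The alpha subunits' median difference was -0.55. It was -0.36 with array class held, which left 3 of 7 passing (Psma2, Psma3 and Psma6), and -0.30 in the high-ratio arrays alone, 3 alpha7 +/T against 6 wild-type mice, in which none passed. All 7 stayed below 0 in both, under quantile normalization (median -0.57) and under median centring (-0.79), with age in the model (-0.50), in the 6-week mice whose sample titles start with LT (-0.62, 4 against 3 mice) and in mice of 7 weeks or older (-0.29, a single alpha7 +/T mouse). Within the low-ratio arrays there was no wild-type mouse to compare. Psma2 passed in all 28 fits that left out 1 mouse, with differences of -0.92 to -0.60.

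**Figure D2:**
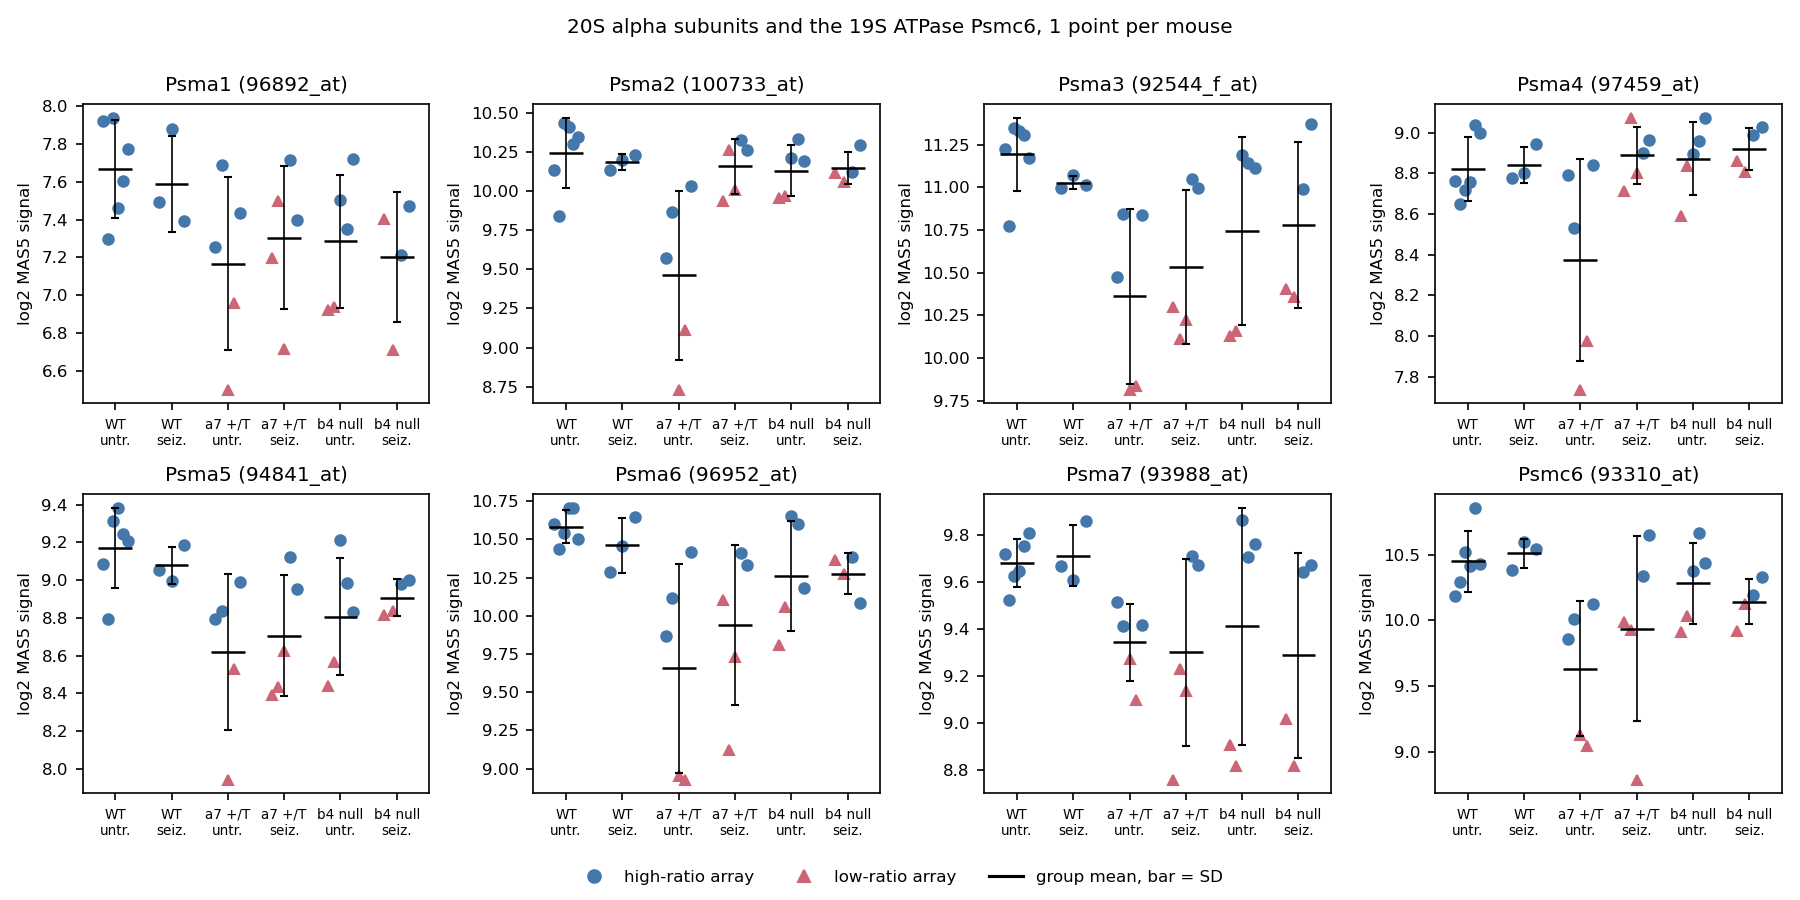
Log2 signal of the 7 alpha subunits of the 20S barrel and of the 19S ATPase Psmc6 in every mouse (1 point per mouse), over the 6 groups of the study; triangles are low-ratio arrays, circles high-ratio arrays, horizontal lines group means and vertical bars SD. Untreated alpha7 +/T means lie below the wild-type means in all 8 panels, and both triangles of that group are its lowest points in each panel.

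The beta subunits, which hold the cutting sites, showed less of this. Of 9 probe sets kept, 5 were below and 4 above wild-type (median -0.15), and only Psmb2 passed, at 296, 354, 433, 428 and 422 in alpha7 +/T mice beside 382 to 675 (median 528) in wild-type mice (log2 difference -0.46, SE 0.15, adjusted p = 0.0411). Psmb2 is not a catalytic subunit, and here mice 1 and 2 were lowest and the other 3 lay in the wild-type range. It did not pass when array class was held, at -0.40 (adjusted p = 0.0786). The catalytic subunits did not pass: Psmb5 differed by 0.48 (adjusted p = 0.245), Psmb6 by 0.02 (adjusted p = 0.948) and Psmb7 by -0.20 (adjusted p = 0.374). Psmb1, the brightest of the subclass, differed by -0.32 (adjusted p = 0.169).

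In cells exposed to interferon, Psmb8, Psmb9 and Psmb10 replace those catalytic subunits and form the immunoproteasome. Psmb8 and Psmb9 were too dim to be kept, with median signals of 20.8 and 5.56 in untreated wild-type mice. Psmb10 was kept and was 1.45-fold higher in untreated alpha7 +/T mice (log2 difference 0.53, SE 0.16, adjusted p = 0.0289), with 288, 268, 464, 432 and 329 beside 182 to 306 (median 241). Mice 3 and 4 were highest, mice 1 and 2 lay within the wild-type range, and with array class held the difference was 0.42 (adjusted p = 0.0601).

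In the 19S cap, Psmc6 and Psmc3 passed as lower. Psmc6 measured 928, 1033, 559, 529 and 1119 in alpha7 +/T mice, all below the wild-type range of 1162 to 1855 (median 1369) (log2 difference -0.81, SE 0.24, adjusted p = 0.0271). Psmc3 passed with 1 of its 3 probe sets kept, at 131, 115, 74.5, 76.1 and 123 beside 127 to 191 (median 148) (log2 difference -0.58, SE 0.16, adjusted p = 0.0238), while its other probe sets differed by 0.76 and 0.17 and did not pass. Both calls were left with array class held, at -0.55 (adjusted p = 0.0422) and -0.43 (adjusted p = 0.047). The 7 Psmc probe sets thus had no common direction: 4 lay above 0, with a median of 0.17 that was -0.12 with array class held and -0.065 under median centring.

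Among 15 probe sets of non-ATPase subunits 3 passed as higher and 2 as lower, beside 7.73% and 8.29% of all 7350. Psmd4, a receptor for ubiquitin chains, measured 624, 1042, 1022, 813 and 222 beside 191 to 386 (median 332) (2.14-fold higher; log2 difference 1.10, SE 0.33, adjusted p = 0.0299), and mouse 5, the one alpha7 +/T mouse not 6 weeks old, was within the wild-type range. Psmd9, which helps to assemble the cap, measured 201, 135, 220.2, 233 and 119 beside 74.1 to 171 (median 111) (log2 difference 0.69, SE 0.19, adjusted p = 0.0249), with mice 2 and 5 inside that range. Psmd7 was higher too (log2 difference 0.62, SE 0.22, adjusted p = 0.0499). Psmd14, the deubiquitinase of the cap, was lower at 345, 343, 281, 205 and 386 beside 372 to 486 (median 412) (log2 difference -0.47, SE 0.14, adjusted p = 0.0321). Psmd11 passed as lower with 1 of 3 probe sets (log2 difference -0.47, SE 0.16, adjusted p = 0.0456); the brightest differed by -0.28 and did not pass. With array class held 0 of the 15 passed, Psmd4 being at 0.73 (adjusted p = 0.0544), Psmd9 at 0.54 (adjusted p = 0.0521) and Psmd14 at -0.39 (adjusted p = 0.0672).

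Chaperones that build the alpha ring passed in both directions. Psmg2, which with Psmg1 brings alpha subunits together, measured 69.6, 74.2, 51.8, 65.9 and 62.1 in alpha7 +/T mice beside 69.1 to 142 (median 122) in wild-type mice (1.76-fold lower; log2 difference -0.82, SE 0.19, adjusted p = 0.0118). A single wild-type mouse, at 69.1, overlapped with them, and the next lowest was at 105. Psmg3, partner of Psmg4 in a second such pair, measured 189.6, 212, 228, 201 and 229, all above the wild-type range of 100.2 to 159.6 (median 135) (log2 difference 0.68, SE 0.17, adjusted p = 0.0156). Both held with array class in the model, at -0.67 (adjusted p = 0.0177) for Psmg2 and 0.64 (adjusted p = 0.0206) for Psmg3, and both kept about that size in the high-ratio arrays, at -0.72 and 0.67. The Psmg3 probe set has a suffix for a reduced probe choice, and the gene's other probe set differed by 0.34 (adjusted p = 0.412).

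Of 24 Ube2 probe sets 2 passed as higher and 5 as lower, beside 7.73% and 8.29% of all 7350. Ube2n and Ube2v2, which act together as the pair that builds lysine-63 chains, were both lower. Ube2n measured 474, 384, 272, 376 and 548 beside 506 to 627 (median 584) (log2 difference -0.53, SE 0.14, adjusted p = 0.0174). Ube2v2 measured 81.3, 57.7, 29.8, 28 and 118 beside 90.4 to 125 (median 103) (1.92-fold lower; log2 difference -0.94, SE 0.25, adjusted p = 0.0204). In both genes mouse 5 was within the wild-type range and mice 3 and 4 were lowest. Ube2b, Ube2e1 and Ube2d2a were the other lower members (differences of -0.55, -0.76 and -0.79). Ube2d2a passed with its dimmer probe set, and the brighter one differed by -0.29 (adjusted p = 0.147). Holding array class left 3 of the 7 Ube2 calls: Ube2n at -0.53 (adjusted p = 0.0195), Ube2v2 at -0.78 (adjusted p = 0.04) and Ube2f. The differences of Ube2b, Ube2e1 and Ube2d2a were then -0.34 (adjusted p = 0.0567), -0.51 (adjusted p = 0.0595) and -0.49 (adjusted p = 0.118). In the high-ratio arrays Ube2n differed by -0.32 and Ube2v2 by -0.34.

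Ube2f, which carries the ubiquitin-like protein Nedd8, measured 66.8, 60.8, 89.9, 74.8 and 57.8, all above the wild-type range of 6.34 to 37.7 (median 23.9). It was 3.93-fold higher (log2 difference 1.98, SE 0.55, adjusted p = 0.0246). The difference was 1.54 (adjusted p = 0.0492) with array class held. All 6 wild-type signals were below the lowest array median, 43.6, so the fold is set by dim signals on that side. Ube2o, a large enzyme that joins the carrier and ligase steps, was 1.28-fold higher with its brighter probe set (log2 difference 0.36, SE 0.12, adjusted p = 0.0391). It did not pass with array class held, at 0.34 (adjusted p = 0.0645). The dimmer Ube2o probe set had the opposite sign, at -0.18 (adjusted p = 0.31). Ube2r2, the brightest of the subclass, differed by -0.36 (adjusted p = 0.283).

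Of 30 Usp probe sets 2 passed as higher and 3 as lower, beside 7.73% and 8.29% of all 7350. Of the 30, 15 lay on each side of 0. Usp14, which sits on the proteasome and trims chains from its substrates, measured 228, 167, 174, 182 and 189 beside 199 to 317 (median 285) (log2 difference -0.54, SE 0.16, adjusted p = 0.0266). Its difference was alike with array class held, at -0.52 (adjusted p = 0.0396), and in the high-ratio arrays, at -0.49. Usp33 measured 332, 289, 228, 196 and 429 beside 421 to 495 (median 444) (log2 difference -0.66, SE 0.17, adjusted p = 0.0166), and only mouse 5 reached the wild-type range. Usp9x, a large deubiquitinase encoded on the X chromosome, was lower with its brighter probe set (log2 difference -0.57, SE 0.16, adjusted p = 0.0265) and did not pass with the other (-0.19, adjusted p = 0.42). Both probe sets of Usp19 were higher, the dimmer by 2.11 (adjusted p = 0.0424) and the brighter by 0.74 (adjusted p = 0.0437). The dimmer one was dropped by the stricter filter (above the array median on 14 or more arrays) and was 2.06 higher in low-ratio arrays. With array class held neither passed, at 1.29 (adjusted p = 0.0875) and 0.45 (adjusted p = 0.0915). Usp33 passed there, at -0.47 (adjusted p = 0.0137), and Usp9x did not, at -0.43 (adjusted p = 0.0515).

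In the proton pump, Atp6v0a2, the large V0 subunit that carries the proton path, was higher with 2 of its 3 probe sets. The first measured 75.3, 96.9, 122, 96.1 and 72.1 in alpha7 +/T mice, all above the wild-type range of 35.9 to 59.5 (median 49.6) (log2 difference 0.92, SE 0.23, adjusted p = 0.0158). The second measured 380.1, 576, 536, 578 and 290.4 beside 195 to 288 (median 236), also without overlap (log2 difference 0.96, SE 0.28, adjusted p = 0.0289). Its remaining probe set differed by 0.03 (adjusted p = 0.898). Atp6v0a1, the form of that subunit most used in neurons, passed at 218, 389, 751, 706 and 96.8 beside 64.4 to 120.2 (median 88.9) (log2 difference 1.92, SE 0.66, adjusted p = 0.0465), and it is the member that differed most between array classes (2.41 higher in low-ratio arrays). Once array class was held, the Atp6v0a1 difference was 0.95 (adjusted p = 0.0246), and the first and second Atp6v0a2 probe sets were 0.67 (adjusted p = 0.0188) and 0.59 (adjusted p = 0.0308).

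Atp6v0e, a small V0 subunit, went the other way, with 177, 189.5, 111, 209 and 155, all below the wild-type range of 215 to 271 (median 229.6) (log2 difference -0.50, SE 0.16, adjusted p = 0.0382). In the V1 sector Atp6v1d, of the central stalk, measured 968, 867, 816, 768 and 1253, below 1263 to 1651 (median 1379) in every mouse (log2 difference -0.61, SE 0.17, adjusted p = 0.0248). Atp6v1b2, the brain form of the B subunit, passed as higher with its dimmer probe set (log2 difference 0.95, SE 0.33, adjusted p = 0.0472), while the brightest V1 probe set, of the same gene, differed by 0.03 (adjusted p = 0.801). Atp6v1d passed with array class held, at -0.41 (adjusted p = 0.0279), and Atp6v0e and Atp6v1b2 did not, at -0.44 (adjusted p = 0.0783) and 0.50 (adjusted p = 0.0606). The V0 median of 0.71 was 0.38 with array class held, 0.35 in the high-ratio arrays and 0.47 under median centring, which put 6 of the 8 above 0; quantile normalization, array class and the high-ratio arrays also put 6 above 0.

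Of 12 cathepsin probe sets 2 passed as higher and 2 as lower, beside 7.73% and 8.29% of all 7350. Ctse, an aspartic protease of the endosome, measured 106, 151, 201, 269.9 and 89.3, all above the wild-type range of 7.17 to 63.1 (median 43.7) (log2 difference 2.16, SE 0.55, adjusted p = 0.0175). The wild-type signals are dim, with a median near the lowest array median, 43.6, and 7.17 stood apart from the others at 29.5 to 63.1. This probe set was 1.60 higher in low-ratio arrays. The other Ctse probe set kept differed by 0.75 (adjusted p = 0.139). Ctsf, a cysteine protease, measured 336, 467, 485, 487 and 170.5 beside 141 to 238 (median 203) (1.95-fold higher; log2 difference 0.96, SE 0.30, adjusted p = 0.032), and mouse 5 alone lay inside the wild-type range. Ctsl, another cysteine protease, was lower at 393, 336, 209, 331 and 387, all below 398 to 547 (median 495) (log2 difference -0.56, SE 0.17, adjusted p = 0.0302). Ctsb was lower with 1 of 3 probe sets (log2 difference -0.64, SE 0.22, adjusted p = 0.0447), and its brightest differed by 0.19 (adjusted p = 0.384). Ctsd, the main aspartic protease of the lysosome, differed by 0.61 (adjusted p = 0.196) and Lamp1 by 0.10 (adjusted p = 0.661). Ctse and Ctsl passed with array class held, at 1.52 (adjusted p = 0.0192) and -0.36 (adjusted p = 0.0459), and Ctsf and Ctsb did not, at 0.63 (adjusted p = 0.0583) and -0.38 (adjusted p = 0.0925). The cathepsin median of 0.26 was 0.11 there and -0.0032 in the high-ratio arrays.

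The 38 calls depended on few mice and on array class. With array class held 19 members passed (14.3%, beside 9.1% of all), 18 of them among the 38. With age held 15 did, all among the 38, beside 561 of all 7350 probe sets. In the high-ratio arrays alone 0 passed in limma, beside 3 of all 7350 probe sets. There 38 of 38 were on the same side of 0, at a median of 0.61 of the size. The 38 had been picked in a fit that holds these arrays, which favours that outcome. Without untreated alpha7 +/T mouse 3 the count was 1 (Psma2), without mouse 4 it was 3, and without mouse 5 it was 49. The counts over all 7350 were then 60, 144 and 2041, beside 1177 with every mouse. Without untreated wild-type mouse 3, 5 or 6 the members' count was 13, 15 or 21, beside 512, 624 or 660 of all. Among 6-week mice with LT titles, 4 alpha7 +/T and 3 wild-type, 18 passed, 15 of them among the 38, in a comparison added after seeing the data. Of all 7350 probe sets 678 passed there. Against wild-type mice with the mutants' title prefix at all ages 0 passed in limma, beside 6 of all 7350. There 38 of 38 were on the same side of 0, again in mice of the fit that picked them. In mice of 7 weeks or older, with 1 alpha7 +/T mouse, 0 passed and 33 of 38 were on the same side.

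**Figure D3:**
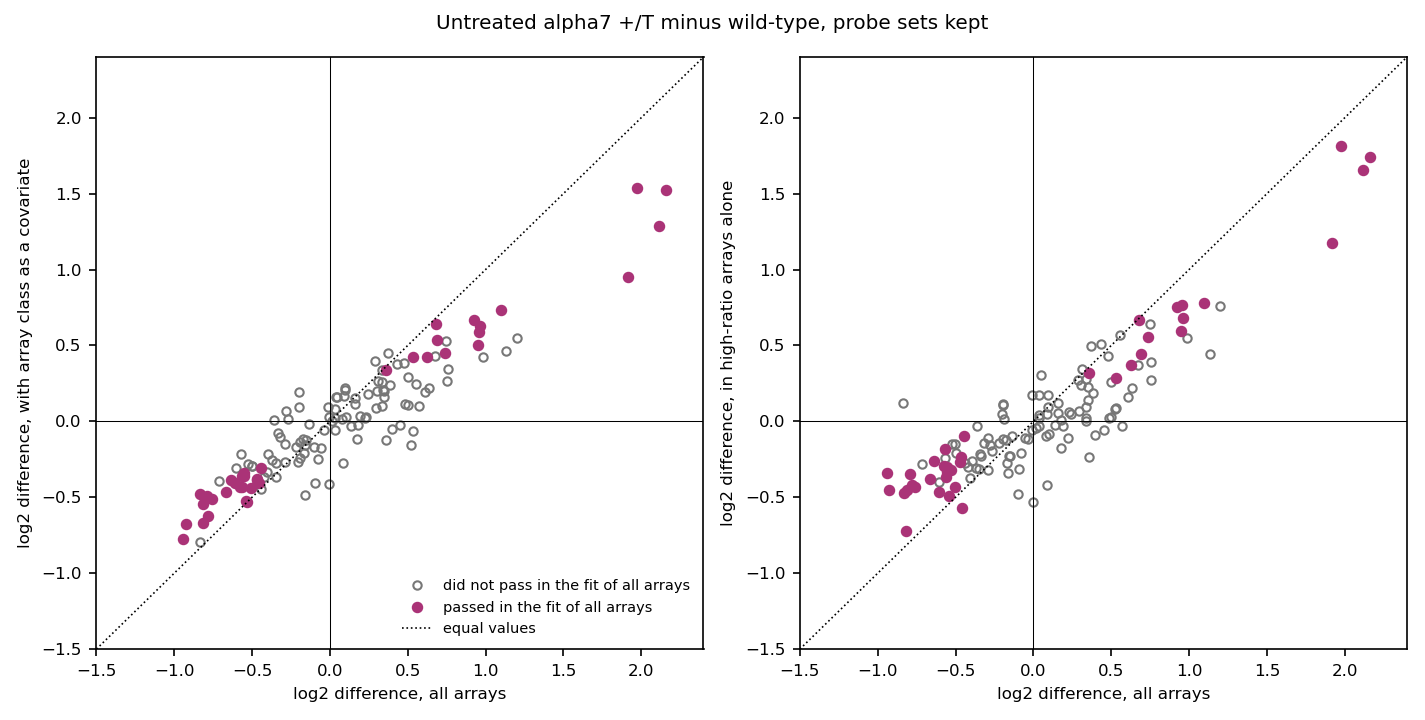
Log2 difference between untreated alpha7 +/T and wild-type mice for the 133 member probe sets, in the fit of all 28 arrays (horizontal axes) against the fit with array class as a covariate (left) and the fit of the 19 high-ratio arrays (right). Filled points are the 38 that passed in all arrays, and the dotted line marks equal values. All 38 keep their sign in both panels, which is favoured because they were picked in a fit that shares its arrays with both. Most lie nearer to 0, with a median of 0.703 of the size on the left and 0.61 on the right.

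Markers of cell types moved with this comparison in part. Passing markers were Syp of neurons (higher, 1 of 9 measured), Gja1 of astrocytes (lower, 1 of 7), Mag of oligodendrocytes (higher, 1 of 6) and C1qc of microglia (higher, 1 of 9), and none of 6 endothelial, 3 choroid plexus or 2 blood markers passed. Of all 7350 probe sets 16% passed. The log2 of the summed neuronal signal was 13.16 to 13.49 in untreated wild-type and 13.15 to 13.38 in untreated alpha7 +/T mice. For astrocytes it was 12.62 to 12.90 and 12.55 to 12.77, for oligodendrocytes 12.37 to 13.02 and 12.61 to 13.28, and for microglia 10.95 to 11.22 and 10.94 to 11.55. These ranges overlapped. The part of cell makeup in the members' differences was not tested.

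Genes of the same pathways outside the symbol rule also went both ways in untreated alpha7 +/T mice. Of 32 other ubiquitin and proteasome genes measured (of 46 listed), 1 was higher and 6 were lower, beside 7.73% and 8.29% of all 7350. The higher one was Uchl1, an abundant neuronal ubiquitin hydrolase (log2 difference 0.93, SE 0.29, adjusted p = 0.0355). Rnf11, Skp1, Rnf4, Nedd4, Cul3 and Nfe2l2 were lower, by between -0.69 (Cul3, the scaffold of a ligase family) and -0.45 (Rnf4). Of 34 other lysosomal genes measured (of 51), Gaa, Npc2, Man2b1 and Hexa were higher and Tpp1, Atp6ap2 and Lamp2 lower. The same shares of all 7350 stand beside these. The median of the ubiquitin list was -0.16 (-0.14 with array class held), and that of the lysosomal list 0.13 (0.04). Lamp2, the companion of Lamp1 in the lysosomal membrane, had a log2 difference of -0.91 (SE 0.19, adjusted p = 0.0102).

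At 1 hour after seizure, alpha7 +/T mice had less RNA for Lamp1 and Ube2s than untreated mice of that genotype. They had more for Usp9x, Ube2v2, Ube2n and Psma2, and for Psmd11 by 1 of its 3 probe sets. In all 8 of 133 member probe sets passed (6.02%), 6 higher (4.51%) and 2 lower (1.5%), beside 2.8% of all probe sets kept, 1.71% higher and 1.09% lower. An unadjusted p under 0.05 was found for 29 members (21.8%) beside 18.4% of all, and the groups did not overlap for 5 (3.76%) beside 2.95%. Seized and untreated mice did not overlap for Lamp1 and for the Psmd11 probe set that passed. The brightest Psmd11 probe set went the other way, at -0.42, and did not pass. Usp9x passed with both of its probe sets. The 5 untreated alpha7 +/T mice are the same animals as in the comparison above, in which Psma2, Ube2n, Ube2v2, Usp9x and Psmd11 were lower than in wild-type mice, so the 2 comparisons share those samples and are not independent.

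**Figure D4:**
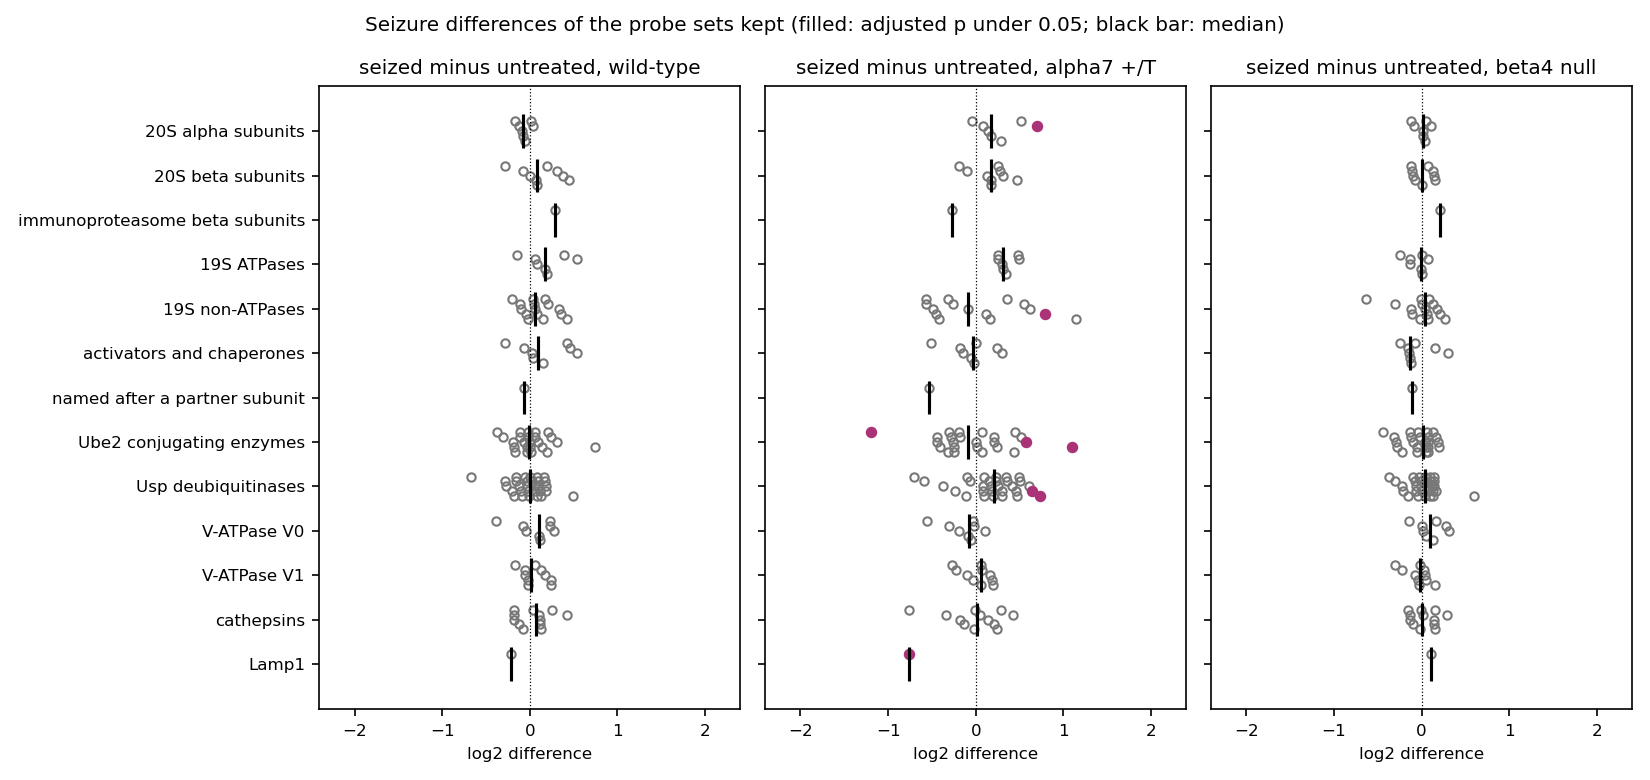
Differences between seized and untreated mice in wild-type (left), alpha7 +/T (middle) and beta4 null mice (right) for the 133 member probe sets; the horizontal axis is the log2 difference and each row is a subclass. Filled points have an adjusted p under 0.05 and black bars are subclass medians; 8 points are filled in the middle panel, from Ube2s at -1.20 to Ube2v2 at 1.10, and none in the others.

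Lamp1, a heavily glycosylated protein that lines the lysosomal membrane, measured 4374, 3967, 3357, 3470 and 3377 in untreated and 1837, 2121, 2249, 2584 and 2126 in seized alpha7 +/T mice 1 to 5. Every seized mouse was below every untreated mouse, and the fall was 1.70-fold (log2 difference -0.77, SE 0.16, adjusted p = 0.00847). The change was -0.70 (adjusted p = 0.00159) with array class held and -0.73 in the high-ratio arrays, and -0.62 with age held, where it did not pass (adjusted p = 0.197). Without age in the model it passed in all 28 fits with 1 mouse left out. In log2 units (mean ± SD) the groups stood at 11.75 ± 0.31 (n = 6) and 11.54 ± 0.09 (n = 3) in untreated and seized wild-type mice, 11.85 ± 0.17 (n = 5) and 11.08 ± 0.18 (n = 5) in alpha7 +/T mice, and 11.26 ± 0.36 (n = 5) and 11.37 ± 0.20 (n = 4) in beta4 null mice. Seized alpha7 +/T mice were lowest and untreated alpha7 +/T and wild-type mice highest. Lamp2 went the opposite way in the same animals (log2 difference 1.19, SE 0.20, adjusted p = 0.00213). It was also lower in those untreated mice than in wild-type mice, so its rise is not independent of that comparison.

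Psmd11, a scaffold subunit of the cap's lid, measured 149, 104, 79.5, 126 and 182 in untreated and 202, 198, 195, 224 and 249 in seized alpha7 +/T mice, without overlap (1.73-fold higher; log2 difference 0.79, SE 0.17, adjusted p = 0.00989). The gene's brightest probe set differed by -0.42 (adjusted p = 0.424), so its probe sets disagree in sign. Psma2 measured 761, 934, 425, 552 and 1049 before and 980.1, 1229, 1029, 1283 and 1226 after seizure (log2 difference 0.70, SE 0.17, adjusted p = 0.026). The seized mice lay within the wild-type range given above. The other 6 alpha subunits did not pass; their differences ran from -0.04 (Psma7) to 0.51 (Psma4).

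Usp9x rose from 541, 540.1, 284, 335 and 742 to 785, 762, 687, 811 and 778 with its brighter probe set (log2 difference 0.73, SE 0.17, adjusted p = 0.0194). With the other it rose from 75.3, 75.0, 39.7, 71.1 and 39.1 to 90.3, 90.3, 98.9, 90.0 and 80.2 (log2 difference 0.65, SE 0.18, adjusted p = 0.0484), with no overlap there and an overlap through untreated mouse 5 in the first. The second call was kept in only 3 of 28 fits with 1 mouse left out. Usp9x removes ubiquitin from many proteins, among them signalling and synaptic ones.

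Ube2v2 rose from 81.3, 57.7, 29.8, 28 and 118 to 136, 108, 114, 96.2 and 129.9 (2.15-fold; log2 difference 1.10, SE 0.26, adjusted p = 0.0219). Its partner Ube2n rose from 474, 384, 272, 376 and 548 to 729.7, 528, 608, 526 and 612 (log2 difference 0.58, SE 0.14, adjusted p = 0.0244). In both genes untreated mouse 5, the 8-week-old one, was already at the level of the seized mice. Ube2s, which lengthens lysine-11 chains for the anaphase-promoting complex, fell from 362, 258, 276, 277 and 132 to 126, 162, 93.8, 77.5 and 100.3 (2.29-fold; log2 difference -1.20, SE 0.28, adjusted p = 0.0208). Untreated mouse 5 was again among the seized values.

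**Figure D5:**
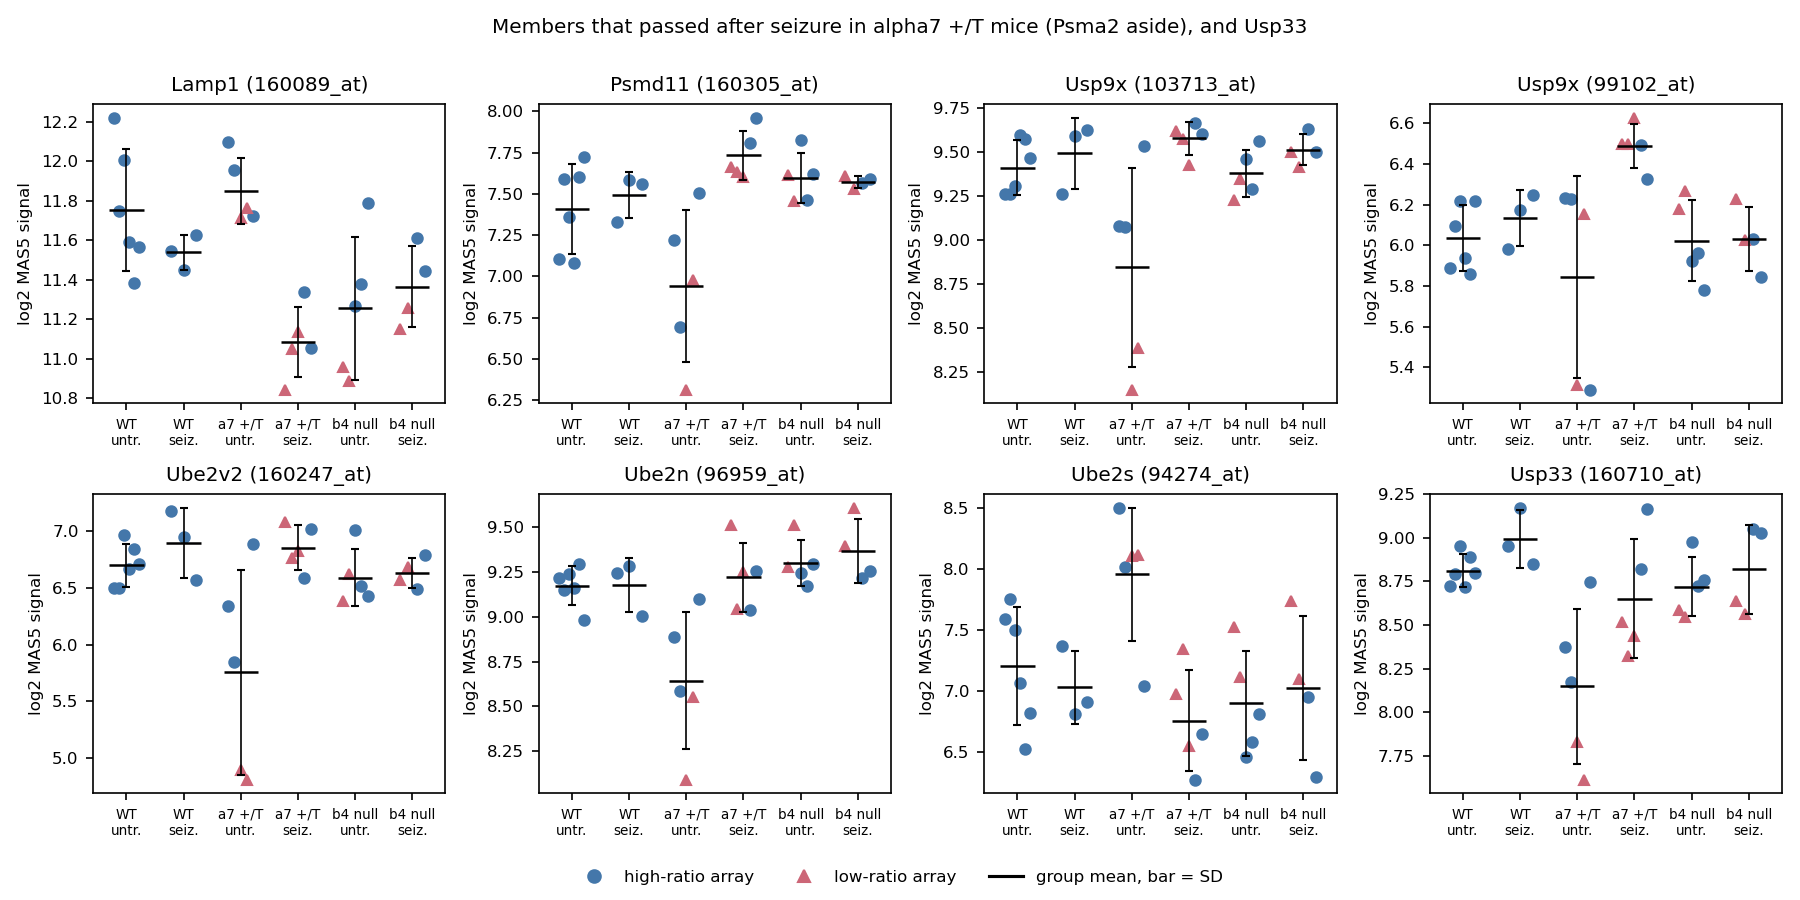
Log2 signal of 7 probe sets that passed after seizure in alpha7 +/T mice (Psma2, plotted with the alpha subunits, was the eighth) and of Usp33 in every mouse over the 6 groups; triangles are low-ratio arrays, circles high-ratio arrays, horizontal lines group means and vertical bars SD. Lamp1, Psmd11 and the dimmer Usp9x probe set do not overlap between untreated and seized alpha7 +/T mice, and the other 5 panels do.

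With array class held, 27 members passed after seizure in alpha7 +/T mice (20.3%, beside 13.3% of all probe sets), all 8 among them. Within the low-ratio arrays, 2 untreated against 3 seized mice, 17 passed, 7 of the 8 among them, beside 682 of all 7350 probe sets. Within the high-ratio arrays, 3 against 2, only 1 of 3 Atp6v0a2 probe sets passed (-1.15, adjusted p = 0.049, named after its value was seen), beside 13 of all. In the fit of all arrays these 3 probe sets differed by -0.56, 0.10 and -0.02, and none passed. None of the 8 passed in the high-ratio arrays. All 8 kept their sign, but they had been picked in a fit that holds these arrays, which favours that outcome. With age held 0 passed in limma, beside 12 of all 7350. The counts without 1 mouse ran from 2 (without untreated mouse 3) to 17 (without untreated mouse 5), beside 77 and 670 of all. Without untreated mouse 4 the count was 4 and without seized mouse 1 it was 5, beside 144 and 119 of all. Age, at 6 weeks in 4 of 5 untreated and 8 weeks in all seized alpha7 +/T mice, moves with the seizure in this genotype. In mice of 7 weeks or older, with 1 untreated alpha7 +/T mouse, the 8 had a median of 0.225 of their size. There 7 of 8 were on the same side of 0, and Ube2v2 was at -0.03. Over 13 alternatives Lamp1 ran from -0.80 to -0.54, Psma2 from 0.12 to 1.15 and the brighter Usp9x probe set from 0.04 to 1.27.

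The remaining subclasses gave no call in seized against untreated alpha7 +/T mice. The 7 Psmc probe sets, which stand for 5 genes and include 3 of Psmc3, all lay above 0 (median 0.31, from 0.26 to 0.49). An unadjusted p under 0.05 was found for 2 of 12 cathepsin probe sets and for 0 of 8 V0 probe sets. Psme3ip1 lay lower in all seized than in all untreated mice (log2 difference -0.53, SE 0.15, adjusted p = 0.0555) and Usp2, with its dimmer probe set, higher (log2 difference 0.34, SE 0.16, adjusted p = 0.244), and neither passed. Of the other pathway genes Skp1, a subunit of cullin ligases, and Nfe2l2, the transcription factor Nrf2, rose (log2 differences 0.63 and 0.64, adjusted p = 0.0458 and 0.0199), as did Atp6ap2 and Lamp2. All of them were lower in the same untreated mice than in wild-type mice, so these rises are not independent of that comparison. They were 2 of 32 ubiquitin and 2 of 34 lysosomal genes measured, beside 1.71% of all 7350 passing as higher. The median of the ubiquitin list was 0.14 (0.16 with array class held), and that of the lysosomal list -0.04 (-0.10). Among cell type markers Gad1 of neurons and Rgs5 of pericytes rose, and Eng and Cldn5 of endothelium fell. The log2 of the summed signal of the 6 endothelial and pericyte markers was 10.04 to 10.75 in untreated and 9.52 to 9.94 in seized alpha7 +/T mice, which do not overlap. Whether this bears on the fall of Lamp1 was not tested.

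In wild-type mice 0 of 133 members passed after seizure in limma, beside 0.0544% of all probe sets, and 2 (1.5%) had an unadjusted p under 0.05 beside 4.24%. Both were chaperones of the alpha ring: Psmg4 differed by 0.53 (SE 0.21) and Psmg3 by 0.43 (SE 0.20). Psmg3 measured 182, 171 and 179.8 in the 3 seized mice, above all 6 untreated ones at 100.2 to 159.6 (median 135). The groups did not overlap for 4 members (3.01%), beside 4.23% of all: Psmg3 and 1 Psmc3 probe set lay above, and Atp6v0e and Usp21 below. Lamp1 differed by -0.21 (SE 0.18). No wild-type mouse was on a low-ratio array, so both of these groups are on high-ratio arrays, and there were 3 seized mice.

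In beta4 null mice 0 of 133 members passed in limma, beside 0.0136% of all, and 1 (0.752%) had an unadjusted p under 0.05 beside 1.74%: Ube2k, an enzyme that builds lysine-48 chains, with 163, 164, 156, 152 and 146 in untreated and 129.6, 128, 149.5 and 98.7 in seized mice (log2 difference -0.32, SE 0.12). The other Ube2k probe set kept differed by -0.05. Averaged over the genotypes with equal weight, 0 of 133 passed, beside 0.408% of all, and 16 (12%) had an unadjusted p under 0.05 beside 8.64%. Usp9x had the smallest p there (log2 difference 0.32, SE 0.10, adjusted p = 0.324), followed by Lamp1 (log2 difference -0.29, SE 0.10, adjusted p = 0.329). With array class held 2 passed, Ube2d3 (log2 difference 0.36, adjusted p = 0.0433) and Usp33 (0.31), beside 0.694% of all. The medians of all subclasses with over 1 probe set lay between -0.04 and 0.20 for this average, with the Psmc ATPases highest. All 7 Psmc probe sets, of 5 genes, lay above 0.

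Whether the seizure change differed between genotypes was tested as an interaction. It was found for 0 of 133 members, beside 0.0272% of all, and 10 (7.52%) had an unadjusted p under 0.05, beside 7.66%. Lamp1 came first, with a change of -0.21 for wild-type, -0.77 for alpha7 +/T and 0.11 for beta4 null animals (adjusted p = 0.360, and 0.0606 with array class held). Psma2 changed by -0.06, 0.70 and 0.02 (adjusted p = 0.462, and 0.0606 with array class held). The changes in alpha7 +/T mice are therefore not shown to differ from those in the other genotypes.

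No member passed between beta4 null and wild-type mice, before or after seizure. Of untreated mice 0 of 133 passed in limma, beside 0.0136% of all, and 19 (14.3%) had an unadjusted p under 0.05 beside 12.9%. The Psmc ATPase Psmc5 came first (log2 difference 0.67, SE 0.20, adjusted p = 0.336), followed by Lamp1, which measured 1988, 1892, 2465, 2661 and 3533 beside 2667 to 4772 (median 3262) (log2 difference -0.50, SE 0.15, adjusted p = 0.336). With array class held these were 0.44 (adjusted p = 0.456) and -0.37 (adjusted p = 0.558), and in the high-ratio arrays 0.34 and -0.28. Of seized mice 0 passed, beside 0.0136% of all, and 3 (2.26%) had an unadjusted p under 0.05 beside 4.42%. These were Atp6v1g1, the dimmer Usp19 probe set and Atp6v0e2 (differences of -0.40, 2.06 and 0.44). The alpha subunits' median was -0.32 in untreated and -0.19 in seized beta4 null mice, and -0.08 and 0.13 with array class held. V0 probe sets lay above wild-type in 7 of 8 in untreated and 8 of 8 in seized beta4 null mice. Their medians were 0.37 and 0.31, and 0.11 and 0.08 with array class held.

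Seized alpha7 +/T mice, set against seized wild-type mice, gave 0 of 133 calls in limma, beside 0% of all, and 18 members (13.5%) with an unadjusted p under 0.05 beside 12%. Psmd12, a subunit of the lid, came first (log2 difference -0.58, SE 0.17, adjusted p = 0.396), with all 5 alpha7 +/T mice below the 3 wild-type mice. Lamp1 was also lower in all 5, at 1837, 2121, 2249, 2584 and 2126 beside 2984, 2796 and 3158 (log2 difference -0.46, SE 0.18, adjusted p = 0.405), and its difference was -0.27 with array class held. The alpha subunits' median of -0.37 was 0.03 with array class held. V0 probe sets lay above wild-type in 7 of 8, with a median of 0.37 that was 0.01 with array class held.

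Probe sets of the same gene often disagreed. Of 24 genes with more than 1 probe set kept, all probe sets had the same sign for 17 when untreated alpha7 +/T and wild-type mice were compared, for 15 after seizure in alpha7 +/T mice and for 14 in the average over genotypes. At least 1 probe set passed for 11, 2 and 0 of them, and all did for 1, 1 and 0 (Usp19 in the first, Usp9x in the second). The 32 probe sets not kept came from 29 genes, among them Psmb8, Psmb9, Psmc4, Psmd2, Ctsc, Ctsg, Ctsw, Usp18 and Usp29; 17 of the 120 genes had no probe set kept and were not tested. No detection call was at hand, so these are dim signals and not shown to be absent.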

How the data were processed

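Total RNA of whole brain from 28 mice was labelled from an oligo-dT primer and hybridised to 1 Affymetrix U74Av2 array each, per the labels' protocols. The deposited values are probe set intensities, which the submitters' processing notes name as MAS5 signal; its version and settings were not stated. The 2% trimmed mean was 150 on every array, so each had been scaled by the authors to that target. No detection calls or scanner files were used, and precision is limited by how many arrays each group has.

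The deposited intensities were taken to log2 without a pseudocount. Probe sets above their own array's median in at least 3 arrays were kept. A mean for each of 6 groups was fitted to all 28 arrays with limma 3.58.1 in R 4.3.3 (lmFit, eBayes with trend), p-values were two-sided and adjusted by Benjamini-Hochberg over all 7350 probe sets kept, and the threshold was 0.05; the code was tested on simulated data. Names come from the platform annotation, and all 165 member symbols matched the mouse gene table of GRCm38.p6. Replicates are separate mice, numbered in accession order. An array was called low-ratio where the log2 ratio of its 3 prime to its 5 prime Gapdh control set was under 0.5.

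Alternatives were median centring or quantile normalization of the arrays, no filter or a stricter one, low signals raised to the 25th percentile, array class, age or sex as covariates, array or age subsets, the compared groups alone, wild-type mice with the mutants' title prefix, and leaving out each mouse. Array class with age as covariates, and the 6-week mice with LT titles, were added after seeing the data.

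The members, gene lists, subclasses and tests were chosen with earlier results of these data known. Genes named are members that passed in any comparison (up to 12 with the smallest adjusted p in each direction), the brightest and the smallest-p member of each subclass for the seizure average, the immunoproteasome subunits and their counterparts, Uchl1 and Lamp2. Other members named were chosen after their values were seen. Promoters are from RefSeq.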

Additional observations from a re-analysis of the deposited data

Results flagged for a closer look

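Single mice stood apart from the rest of their group in 10 of 215 pairs of a named probe set and a group of 4 to 6 mice, where chance gives about 1 in 20. Among the proteasome genes, Psma3 measured 1752 in untreated wild-type mouse 2 beside 2305 to 2606 in the other 5, and the brightest Psmd11 probe set measured 902.8 in the same mouse beside 1191 to 1349. Psmb10 measured 297.4 in seized beta4 null mouse 3 beside 346.8 to 353.1, and Psmg2 measured 76.6 in untreated beta4 null mouse 1, on a low-ratio array, beside 105.3 to 117.8.

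Among the deubiquitinases, the brighter Usp19 probe set measured 371.2 in untreated wild-type mouse 2 beside 194.9 to 245.6, and 203.6 in untreated alpha7 +/T mouse 5 beside 451.7 to 501.9. Usp14 measured 158.3 in seized alpha7 +/T mouse 3, on a low-ratio array, beside 262.4 to 318.5. Among the lysosomal genes, Ctse measured 7.17 in untreated wild-type mouse 4 beside 29.5 to 63.1. Atp6v0e2 measured 951.5 in untreated wild-type mouse 3 beside 1342 to 1539, and the brightest Atp6v1b2 probe set measured 2959 in untreated beta4 null mouse 2, on a low-ratio array, beside 3481 to 3687.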

How the results depend on the processing

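For untreated alpha7 +/T against wild-type mice, the 38 members passing became 25 without the filter on dim signals, which adds tests, 19 with array class held, 15 with age held, 12 with both, 20 with the compared groups alone and 18 in the 6-week mice with LT titles. None passed in limma in the high-ratio arrays, in mice of 7 weeks or older, or against the wild-type mice of the mutants' title prefix, all of which leave fewer mice. Median centring gave 45, with 8 higher and 37 lower in place of 15 and 23. Over all probe sets the 1177 passing became 900 of 12422 without the filter, 669 with array class held and 561 with age held. They became 448 with both, 538 with the compared groups alone, 678 in the 6-week mice and 1439 under median centring. For seizure in alpha7 +/T mice, the 8 became 3 under median centring, 27 with array class held, 4 with array class and age, 17 in the low-ratio arrays and 1 in the high-ratio arrays, and 0 with age held, in mice of 7 weeks or older and with the compared groups alone. Over all probe sets the 206 became 134 under median centring, 978 with array class held and 84 with array class and age. They became 682 in the low-ratio arrays, 13 in the high-ratio arrays, 12 with age held and 4 with the compared groups alone. The seizure average gave 2 in place of 0 with array class held. With 1 mouse left out, the counts ran from 1 to 49 for the first comparison, from 2 to 17 for the second and from 0 to 2 for the average, and were 0 in all 28 fits of each of the other 6. Of 467 values of single named probe sets under the alternatives, 271 kept their direction and side of the threshold, 191 kept the direction alone and 5 reversed, all when 6-week mice were left out, which leaves a single untreated alpha7 +/T mouse that is assumed to vary like the others. These were Ube2v2 after seizure (-0.0283) and, in untreated mice, Ube2v2 (0.14), Psmd11 (0.0351), Psmd4 (-0.52) and the brighter Usp19 probe set (-0.054). Except where fewer mice or more tests account for it by construction, the cause was not tested. No paired analysis was possible because the labels give no replicate numbers. Dim probe sets such as Ube2f, Ctse and the dimmer Usp19 set carry the widest errors.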
